A study of Danio rerio with 4 samples.

Results

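The genes described here are 9 genes of the epithelial-to-mesenchymal transition (EMT), chosen by name: the Snail genes snai1a, snai1b and snai2, the Twist genes twist1a and twist1b, the paired-related homeobox genes prrx1a and prrx1b, the zinc finger gene zeb2a, and cdh2, which encodes N-cadherin. Earlier results of these data were known when these genes were chosen. Of the 9, 8 were listed in all 4 libraries, among 20269 genes listed in any library. The gene ID of twist1a (ENSDARG00000030402) was listed in none, so no value is given for it.

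RNA was sequenced from hearts of Tg(vmhc:mCherry-NTR) zebrafish larvae aged 5 days post fertilization. All 4 groups carry this transgene, in which the vmhc promoter, active in cardiomyocytes of the ventricle, drives nitroreductase, the enzyme that makes metronidazole (MTZ) toxic to a cell. The groups were injured hearts kept in SIS3 (an inhibitor of Smad3 phosphorylation, 2 µM), injured hearts kept in vehicle (DMSO, 0.2%), uninjured hearts in SIS3 and uninjured hearts in DMSO. Injury was made with 5 mM MTZ for 4 hours at 72 hours post fertilization, the compounds were present from 76 to 124 hours, and injured hearts were therefore taken 2 days after treatment. The sources used here give neither the number of hearts in a library nor whether uninjured larvae received MTZ. Each group had 1 library. No difference below therefore has a replicate check, an error or a p-value, and none of the comparisons was tested.

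In an EMT, cells of a sheet loosen their junctions and gain the ability to move. Snail and Zeb proteins are zinc finger repressors that bind E-box sequences and silence epithelial genes such as that of E-cadherin. Twist proteins are basic helix-loop-helix factors and Prrx1 proteins are homeodomain factors, both typical of mesenchyme. In the heart, EMT is known from the epicardium and from the endocardial cushions that form the valves, and TGF-β acting through Smad3 is a classical inducer of Snail genes. N-cadherin, often gained in an EMT, is also the cadherin with which cardiomyocytes adhere to each other, so its level is read beside the factors.

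Levels are FPKM, which are per transcript length and so allow comparison between genes, scaled to a common median across the 4 libraries. A change is the difference between libraries of log2(scaled FPKM + 1), which shrinks the changes of genes at low levels, and a gene was called when it reached 2-fold. Read depth could not be recovered from these values. The libraries listed 15691 to 18207 genes, and 13586 whose mean reached 1 FPKM were compared, all 8 listed EMT genes among them. As a check of the tissue label, the cardiomyocyte light chain gene myl7 was at 2585 FPKM in injured SIS3, 2829 in injured DMSO, 4096 in uninjured SIS3 and 5008 in uninjured DMSO. The libraries also held RNA of other tissues, in unequal amounts. Summed over 13 liver markers the level was 3823 FPKM in injured SIS3, against 344 in injured DMSO, 387 in uninjured SIS3 and 719 in uninjured DMSO. Over 9 pancreas and intestine markers it was 590.5, 238, 1921 and 1760 FPKM, and over 10 neural and eye markers 3.23, 0.270, 84.9 and 90.7 FPKM, in the same order of libraries. Their part in the levels of the EMT genes was not tested. In whole hearts, a smaller number of cells of a type and less RNA per cell cannot be told apart.

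The 8 listed genes differed widely in level. In every library cdh2 was highest of the 8, above 97.2% of all compared genes in injured DMSO and above 95.6% in uninjured DMSO. Lowest was prrx1b in injured SIS3, injured DMSO and uninjured SIS3, and snai1b in uninjured DMSO. Between these ends the order changed with injury. In injured DMSO the factors ran prrx1a (61.8 FPKM), snai2 (59.4), twist1b (29.9), zeb2a (17.6), snai1a (7.74), snai1b (3.22) and prrx1b (2.42). In uninjured DMSO zeb2a led at 27.4 FPKM, followed by snai2 (14.3), twist1b (12.4), snai1a (9.47), prrx1a (4.50), prrx1b (2.51) and snai1b (1.63). Prrx1a thus stood above 93.6% of compared genes in the injured library and above 40.4% in the uninjured one.

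**Figure D1:**
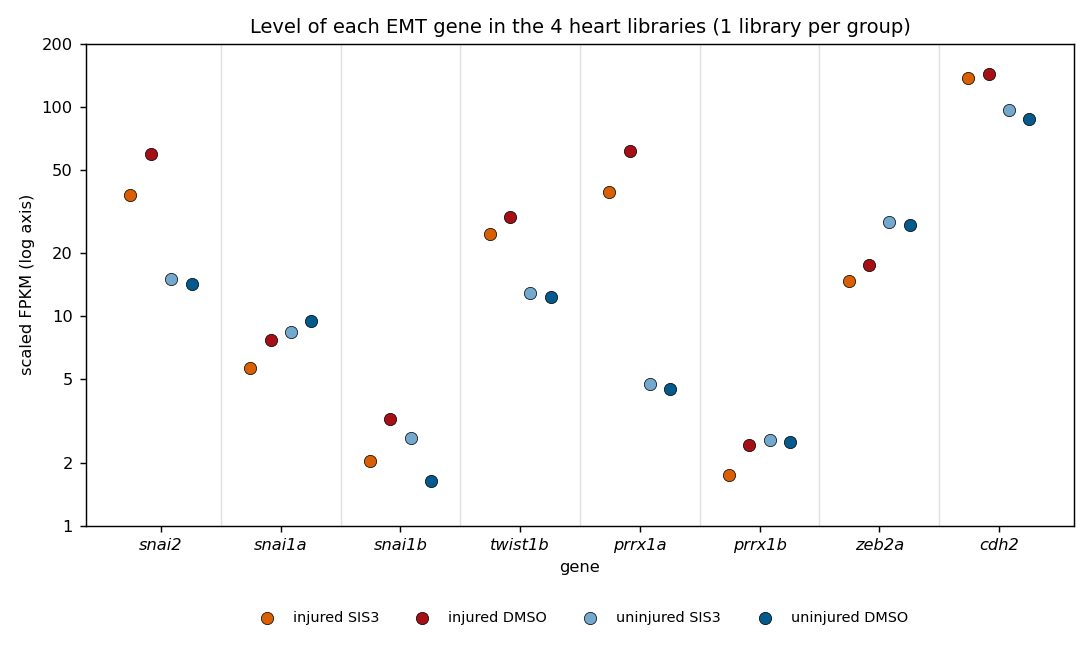
Scaled FPKM on a log axis for each of the 8 listed genes, with 1 point for each of the 4 libraries. Both injured libraries lie above both uninjured ones for snai2, twist1b, prrx1a and cdh2, and below both for zeb2a and, on these scaled values, for snai1a. The share of all compared genes separated in this way was not counted, so nothing is read from the separation itself.

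Among the Snail genes, the injured hearts differed from the uninjured ones mainly in snai2, the Slug factor known from migrating neural crest. It lies on chromosome 24 at 35501020 to 35507036 (ENSDARG00000040046, plus strand; all coordinates are GRCz10). Its level was 38.2 FPKM in injured SIS3, 59.4 in injured DMSO, 15.1 in uninjured SIS3 and 14.3 in uninjured DMSO. Both injured libraries stood above both uninjured ones. How many of all compared genes were separated by injury in this way was not counted, here and for the genes below. Nothing is therefore read from the separation itself. Injury was accompanied by a 4.15 times higher level in DMSO (log2 change 1.98) and a 2.52 times higher level in SIS3 (1.28). Only 186 of the 13586 compared genes had a higher change in DMSO and 539 in SIS3.

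Its paralogs did not show this pattern. Snai1a (ENSDARG00000056995, chromosome 11, 25013879 to 25015015, minus strand), a Snail1 gene active in early mesoderm, was at 5.69 FPKM in injured SIS3, 7.74 in injured DMSO, 8.42 in uninjured SIS3 and 9.47 in uninjured DMSO. Here the injured libraries were the lower ones, with log2 changes of −0.26 in DMSO (−0.06 without scaling) and −0.49 in SIS3. Snai1b (ENSDARG00000046019, chromosome 23, 2567005 to 2573915, minus strand), which in zebrafish is known to keep cardiomyocytes from being extruded from the heart wall, was at 2.03, 3.22, 2.61 and 1.63 FPKM in the same order of libraries. Its level after injury was 1.98 times that of the uninjured library in DMSO (0.68) and 0.777 times in SIS3 (−0.25), so the injured and uninjured libraries overlapped. At these low levels snai1b stood above 32.1% of compared genes in injured DMSO and 12.7% in uninjured DMSO.

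The make-up of Snail expression shifted accordingly. The 3 genes summed to 45.9 FPKM in injured SIS3 and 70.4 in injured DMSO, against 26.2 in uninjured SIS3 and 25.4 in uninjured DMSO. Snai2 made up 83.2% and 84.4% of that sum in the injured libraries with SIS3 and DMSO, and 57.9% and 56.4% in the uninjured ones. The share of snai1a was 12.4% and 11.0% in injured hearts and 32.2% and 37.2% in uninjured hearts, in the same order of compounds.

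Of the Twist genes, twist1b (ENSDARG00000076010, chromosome 16, 19926724 to 19928189, plus strand), known from cranial and cardiac mesenchyme, was at 24.7 FPKM in injured SIS3, 29.9 in injured DMSO, 12.9 in uninjured SIS3 and 12.4 in uninjured DMSO. The injured libraries did not overlap the uninjured ones, from which nothing is read, as for snai2. The injured level was 2.42 times the uninjured one in DMSO (log2 change 1.21) and 1.91 times in SIS3 (0.89), so that only the first was past 2-fold. Twist2, also called dermo1 and not among the 9, was at 4.80, 5.27, 1.69 and 1.29 FPKM in the same order of libraries, with injury changes of 1.45 in DMSO and 1.11 in SIS3.

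Prrx1a had the largest injury change of the 8 genes. It marks limb, craniofacial and fibroblast-like mesenchyme and lies on chromosome 2 at 23509599 to 23517057 (ENSDARG00000033971, minus strand). It was at 39.1 FPKM in injured SIS3, 61.8 in injured DMSO, 4.73 in uninjured SIS3 and 4.50 in uninjured DMSO. The injured level was 13.7 times the uninjured one in DMSO (log2 change 3.51) and 8.27 times in SIS3 (2.81). Only 24 compared genes had a higher change in DMSO and 83 in SIS3. Its paralog prrx1b (ENSDARG00000042027, chromosome 20, 34608799 to 34618162, plus strand), known in zebrafish from epicardium-derived cells of the regenerating adult heart, stayed low throughout, at 1.74, 2.42, 2.57 and 2.51 FPKM. Its injury changes were −0.04 in DMSO (0.12 without scaling) and −0.38 in SIS3. Prrx1a accordingly made up 95.7% and 96.2% of the summed Prrx1 level in injured SIS3 and DMSO, and 64.8% and 64.1% in the uninjured libraries.

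Zeb2a went the other way. It encodes a Smad-interacting repressor needed for neural crest, and lies on chromosome 9 at 25964947 to 26025606 (ENSDARG00000062338, plus strand). Its level was 14.7 FPKM in injured SIS3, 17.6 in injured DMSO, 28.1 in uninjured SIS3 and 27.4 in uninjured DMSO. Both injured libraries were below both uninjured ones, by log2 changes of −0.62 in DMSO (−0.40 without scaling) and −0.89 in SIS3, neither of them past 2-fold. Of the compared Zeb paralogs, zeb1b had injury changes of −0.31 in DMSO and −0.35 in SIS3. Zeb1a and zeb2b, named after their values were seen, had changes of −0.86 and −0.17 in DMSO and −0.98 and −0.22 in SIS3. No direction is read for zeb2b, since without scaling all genes had a median of 0.17 for injury in DMSO, about the size of its change.

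N-cadherin RNA (cdh2, ENSDARG00000018693, chromosome 20, 17840340 to 17919655, plus strand) was at 137 FPKM in injured SIS3, 143 in injured DMSO, 96.3 in uninjured SIS3 and 88.1 in uninjured DMSO. The injured level was 1.63 times the uninjured one in DMSO (0.70) and 1.42 times in SIS3 (0.51). In the same libraries the myl7 level was lower after injury, with log2 changes of −0.82 in DMSO and −0.66 in SIS3. Other cardiomyocyte markers did not all follow it. Of 11 compared, 8 were below and 3 above 0 in DMSO (median −0.73), and 7 below and 4 above in SIS3 (median −0.15). Nppa was among the higher ones, with a change of 1.70 in DMSO and 1.70 in SIS3. Of 7 other compared cadherin genes, 2 were above 0 for injury in DMSO: the epithelial cdh1 (5.56 and 4.13 FPKM in injured and uninjured DMSO, 0.35) and the endothelial cdh5 (44.5 and 34.9 FPKM, 0.34). The other 5 were below 0, 3 of them at least 2-fold lower, where 8.87% of all compared genes were (median of the 7 −0.79). These 3 were cdh13 at 1.40 and 5.54 FPKM in injured and uninjured DMSO (−1.45), cdh17 at 0 and 5.49 FPKM (−2.70), and cdh4. Cdh4, named after its values were seen, was at 0 and 3.65 FPKM (−2.22). Cdh11 was at 3.20 and 6.25 FPKM (−0.79), not past 2-fold. These levels are low, and the median was above 0 under 1 other setting (0.35). For injury in SIS3, 6 of the 7 were below 0 (median −0.65, but 0.29 under 1 other setting). In SIS3 the change of cdh1 was 0.88, with 9.58 FPKM in injured and 4.75 in uninjured hearts, and that of cdh5 was −0.29.

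Counted together, 3 of the 8 genes (prrx1a, snai2 and twist1b) were at least 2-fold higher after injury in DMSO, where 6.49% of all compared genes were, and none was at least 2-fold lower, where 8.87% were. In SIS3, 2 genes (prrx1a and snai2) were at least 2-fold higher, against a background of 6.43%, and none was lower, against 6.74%. The median change of the 8 was 0.69 in DMSO and 0.13 in SIS3, where those of all compared genes were −0.01 and −0.01. Without scaling, the median change of all compared genes for injury in DMSO was 0.17. Of all calls for injury in DMSO, 42.3% were on the higher side with scaled and 57.9% with unscaled values. The counts of 3 and 2 held under each of 9 other settings of the pseudocount, scaling, filter and exon events. The genes, and the lists below, were chosen with earlier results of these data known. The shares of all compared genes are therefore not an independent background for their counts.

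**Figure D2:**
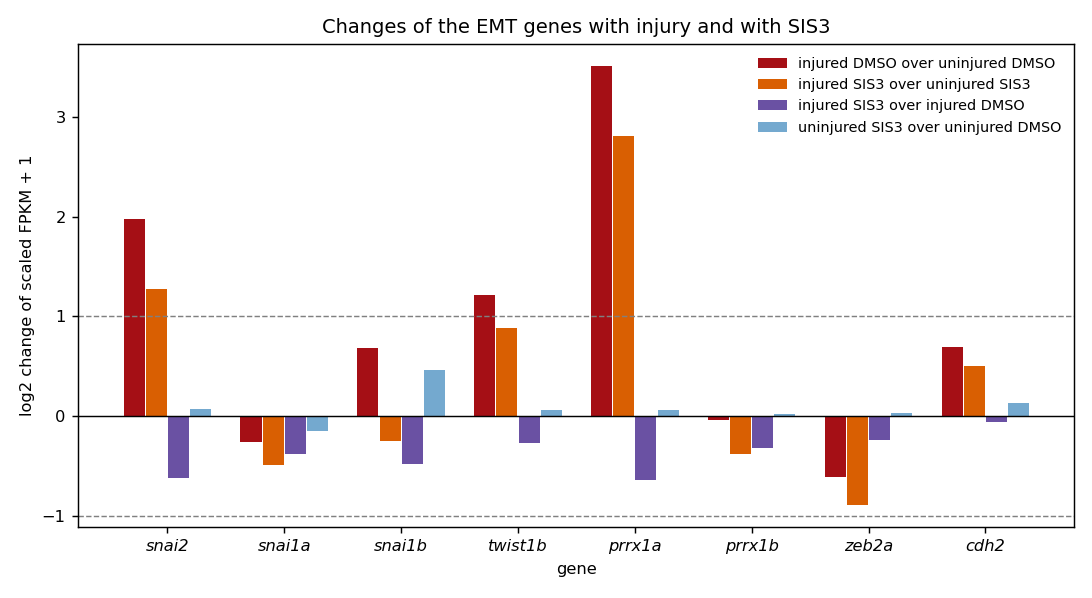
Log2 change of each of the 8 listed genes in the 4 pairwise comparisons, with dashed lines at 2-fold. Prrx1a, snai2 and twist1b reach 3.51, 1.98 and 1.21 for injury in DMSO, and all 8 bars for SIS3 after injury lie below 0.

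With SIS3 after injury, the 8 genes were lower than in injured DMSO, each by less than 2-fold. Prrx1a was at 0.633 times the DMSO level (log2 change −0.65), snai2 at 0.642 times (−0.63, but −0.39 from last exons alone) and snai1b at 0.629 times (−0.48, on the scale that compresses low levels). Snai1a was at 0.735 times (−0.39), prrx1b at 0.721 times (−0.32), twist1b at 0.825 times (−0.27) and zeb2a at 0.837 times (−0.24). Cdh2 was at 0.957 times (−0.06). No gene was called, against a background of 3.21% of compared genes called higher and 1.13% called lower. Of all compared genes, 49.6% were above 0 and the median was 0.00, while the median of the 8 was −0.35. For prrx1a 512 compared genes had a lower change, for snai2 557, and for cdh2 5470. This comparison and the one for injury in DMSO share the injured DMSO library, so their values are not independent of each other.

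In uninjured hearts the levels with SIS3 and with DMSO were close for most of these genes. Prrx1a was at 1.05 times the DMSO level (log2 change 0.06), snai2 at 1.06 times (0.07), twist1b at 1.04 times (0.06), zeb2a at 1.02 times (0.03) and prrx1b at 1.02 times (0.02). Cdh2 was at 1.09 times (0.13) and snai1a at 0.889 times (−0.15). Snai1b, the lowest of the 8 in uninjured DMSO, had the widest difference, at 1.60 times (0.46). None was past 2-fold, where 1.77% of compared genes were higher and 1.46% lower.

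The comparison that uses all 4 libraries is the injury change in SIS3 minus that in DMSO. It is also the change with SIS3 after injury minus that in uninjured hearts, and so is not independent of the values above. It was below 0 for all 8 genes: −0.94 for snai1b, −0.71 for prrx1a, −0.70 for snai2, −0.34 for prrx1b, −0.32 for twist1b, −0.28 for zeb2a, −0.23 for snai1a and −0.19 for cdh2. Of all compared genes, 51.2% were above 0. The median of the 8 was −0.33, where that of all compared genes was 0.01. No gene was past 1 on this scale in either direction, against 4.94% of compared genes on the higher and 3.12% on the lower side. A lower difference was found for 488 compared genes in the case of snai1b, 915 for prrx1a and 940 for snai2, whose difference was −0.46 from last exons alone. For both of the last 2 genes the injured library was the higher one with either compound, and the gap was smaller with SIS3.

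**Figure D3:**
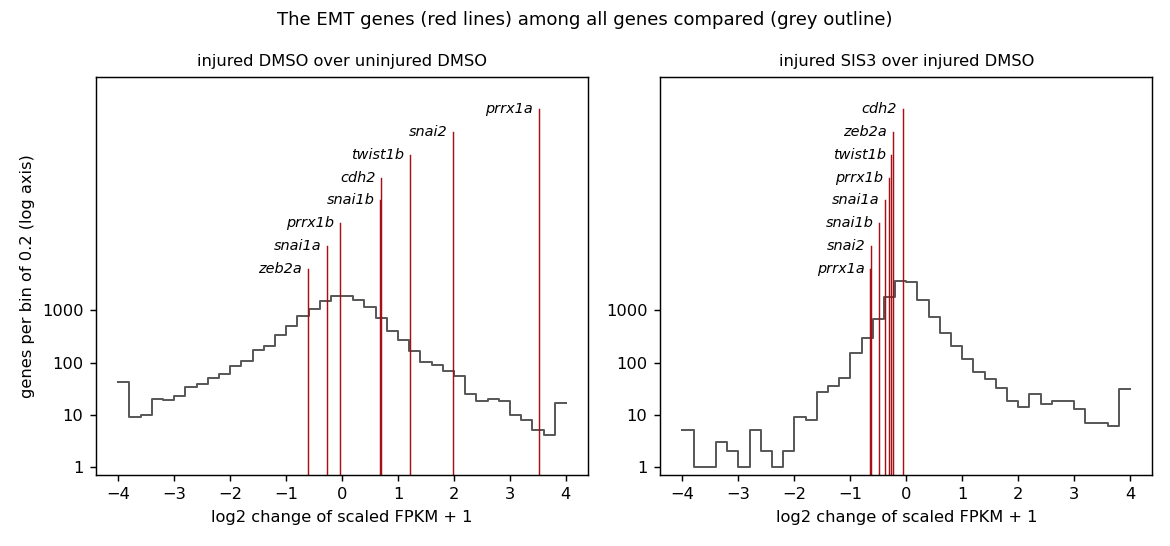
Position of the 8 listed genes (red lines) in the distribution of log2 changes over the 13586 compared genes (grey outline, genes per bin on a log axis, end bins holding all genes beyond them). Prrx1a lies in the far right tail for injury in DMSO at 3.51, and the 8 genes lie between −0.65 and −0.06 for SIS3 after injury.

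The compound acts on Smad3 protein, whose RNA comes from a pair of genes here. Smad3a was at 7.52 FPKM in injured SIS3, 8.18 in injured DMSO, 7.78 in uninjured SIS3 and 5.21 in uninjured DMSO, and smad3b at 4.64, 4.28, 6.77 and 6.60 FPKM. Their injury changes in DMSO were 0.56 and −0.53, neither past 2-fold. Of 21 TGF-β ligands, receptors and Smads compared, 2 were at least 2-fold higher after injury in DMSO and none lower (median 0.19), and none was past 2-fold with SIS3 after injury (median −0.03). The receptor gene tgfbr2a was at 37.0, 40.2, 4.59 and 3.28 FPKM in the same order of libraries, and the ligand gene tgfb1b at 10.1, 14.2, 4.40 and 2.41 FPKM. For the list counts here and below, the shares of all compared genes were 6.49% higher and 8.87% lower for injury in DMSO. They were 6.43% and 6.74% for injury in SIS3, and 3.21% and 1.13% for SIS3 after injury. The 2 genes of 21 are near the first share, so no rise of the list is read from them.

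Among 20 other compared factors that promote the mesenchymal state, 2 were at least 2-fold higher and 1 lower after injury in DMSO. Their median was 0.14, but −0.01 under 1 other setting. With SIS3 after injury 12 of these 20 were above 0 and none was called (median 0.10), so this list did not share the direction of the 8 genes there. Genes that mesenchymal and migrating cells use were more often higher than lower after injury. Of 39 compared, 20 were at least 2-fold higher and 2 lower in DMSO (median 1.04), and 17 higher and 4 lower in SIS3 (median 0.79). With SIS3 after injury 27 of the 39 were below 0 (median −0.24), and 1 gene was called in each direction. The metalloprotease inhibitor gene timp2b, the higher one, was at 115 FPKM in injured SIS3 and 42.5 in injured DMSO (1.41). The collagen gene col6a1, the lower one, was at 41.9 and 87.4 FPKM (−1.04). The matrix gene tncb, a tenascin, was at 13.3 FPKM in injured SIS3, 23.5 in injured DMSO, 1.91 in uninjured SIS3 and 2.20 in uninjured DMSO, and the intermediate filament gene vim, one of the 2 lower members, at 5.86, 5.31, 26.1 and 36.4 FPKM in the same order. Pdgfra, a receptor of fibroblast-like cells, was at 4.43 FPKM in injured SIS3 and 8.32 in injured DMSO, against 12.9 and 9.68 FPKM in uninjured SIS3 and DMSO.

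Epithelial genes were lower more often than higher after injury in DMSO, and more often higher with SIS3 after injury. Of 8 compared factors that keep the epithelial state, 7 were below 0 after injury in DMSO, 2 of them at least 2-fold lower (median −0.66), and 7 were above 0 with SIS3 after injury, 1 of them at least 2-fold higher (median 0.52). That gene, elf3, was at 6.60 FPKM in injured SIS3 and 2.19 in injured DMSO. All 8 factors were at low levels. The highest value was 6.98 FPKM, for gata3 in uninjured DMSO, against 2.00 FPKM in injured DMSO. With a pseudocount of 0.1 FPKM the median of these factors for injury in DMSO was −1.02, so its size depends on that setting. Of 21 epithelial adhesion genes, 3 were at least 2-fold higher and 6 lower after injury in DMSO (median −0.47, but 0.11 among those whose mean reached 5 FPKM), the higher ones being the keratin genes krt8, krt18a.1 and krt18b. Krt18a.1 was at 1115 FPKM in injured SIS3, 1005 in injured DMSO, 113 in uninjured SIS3 and 138 in uninjured DMSO. For injury in SIS3, 15 of the 21 adhesion genes were above 0 (median 0.36), with 4 at least 2-fold higher and 2 lower. Of the 8 factors, 6 were above 0 in that comparison (median 0.08), and 1 was at least 2-fold lower. The lower medians for injury in DMSO were thus not seen in SIS3. With SIS3 after injury, 19 of the 21 were above 0 and 6 were at least 2-fold higher (median 0.69), among them cldni (52.4 and 19.9 FPKM in injured SIS3 and DMSO) and epcam (17.2 and 6.99 FPKM). Liver and pancreas, which are epithelial, were higher in the same library, as given above, and their part in this list was not tested.

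Markers of the cells that could carry Snail, Twist and Prrx1 RNA moved in different directions. Epicardial markers (7 compared) had 2 genes at least 2-fold higher after injury in DMSO and none lower (median 0.78): aldh1a2 at 191 FPKM in injured and 31.7 in uninjured DMSO, and wt1b at 26.0 and 8.51 FPKM. For injury in SIS3 the epicardial median was 0.84, with 2 genes at least 2-fold higher and none lower. With SIS3 after injury 5 of the 7 were below 0 (median −0.31), with tbx18 at 31.0 FPKM in SIS3 and 42.5 in DMSO. The other 2, wt1b and krt94, were above 0 (0.29 and 0.12), with wt1b at 31.9 FPKM in SIS3 and 26.0 in DMSO. In uninjured hearts 6 of the 7 were below 0 with SIS3 (median −0.19). The injury change in SIS3 minus that in DMSO was below 0 for 4 and above 0 for 3 of the 7. Its median was −0.13, and above 0 under 1 other setting (0.23). Tcf21, another epicardial marker, was not listed. Neural crest and pharyngeal arch markers (7 compared of 18) were lower after injury in DMSO in 6 cases, 3 of them at least 2-fold (median −0.95), among them tfap2a at 1.58 and 6.12 FPKM in injured and uninjured DMSO. Cartilage and bone markers (6 compared) had 1 higher and 3 lower (median −0.71), and the fin ray genes and1, and2 and and3 were each at 2.83 FPKM or less in both injured libraries, against 18.1 to 69.0 FPKM in the uninjured ones. The medians of these 3 lists were thus below 0 in the comparison in which prrx1a, snai2 and twist1b were at least 2-fold higher, but for 2 lists this rests on genes at low levels. Where the mean reached 5 FPKM, 1 gene of the neural crest list was left (fli1a, 0.04), which is also an endothelial marker. The 3 cartilage genes left had a median of 0.28. Fin, like the neural tissue and eye given above, is not part of the heart. The lower fin values in the injured libraries are therefore not read as a change within the heart. The part of these cell types in the result was not tested.

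Macrophage markers moved with the 3 factors in direction. Of 11 compared, 10 were at least 2-fold higher after injury in DMSO (median 2.1), and 10 were below 0 with SIS3 after injury, 5 of them at least 2-fold lower (median −0.88). Their summed level over 12 listed genes was 151 FPKM in injured SIS3, 223 in injured DMSO, 40.5 in uninjured SIS3 and 39.0 in uninjured DMSO. Their part in the result for the factors was not tested.

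**Figure D4:**
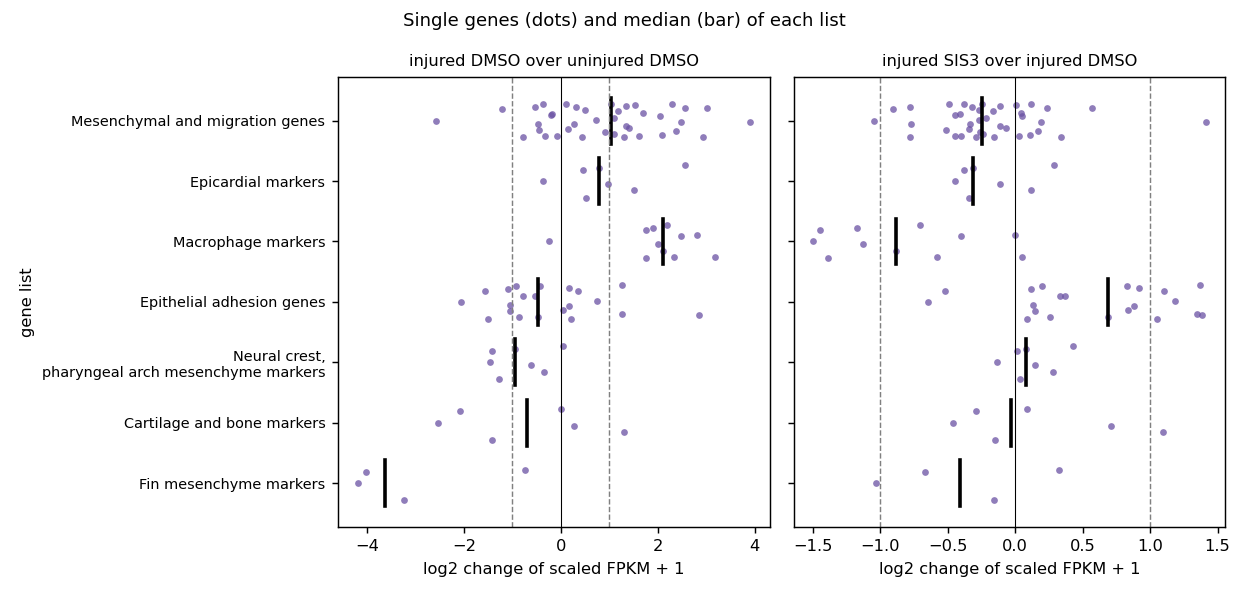
Log2 change of each compared gene (dots) and the median (black bar) for 7 gene lists, for injury in DMSO on the left and SIS3 after injury on the right, with dashed lines at 2-fold. Mesenchymal, epicardial and macrophage medians lie at 1.04, 0.78 and 2.1 on the left and at −0.24, −0.31 and −0.88 on the right, while those of neural crest, cartilage and fin mesenchyme lie below 0 on the left. For injury in SIS3, which is not drawn, the epicardial median was 0.84.

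Genes with the most similar profile over the 4 libraries were found by the Euclidean distance of centred log2 levels among 6791 genes (6792 for snai1b and prrx1b), 4 values per gene. For snai2 they were rab34a, il34 and galk1, at distances of 0.06, 0.15 and 0.18. The cytokine gene il34, whose product is a ligand of the macrophage receptor Csf1r, was at 10.3 FPKM in injured SIS3, 14.2 in injured DMSO, 3.51 in uninjured SIS3 and 3.13 in uninjured DMSO. Prrx1a was nearest to mfap4.8, htra1b and mdka (0.26, 0.29 and 0.31). The distance is not scaled to the size of a gene's changes. The larger distances for prrx1a, which had the largest injury change, therefore do not show that no gene followed it. Mfap4.8 was at 87.3, 137, 14.3 and 13.2 FPKM. Twist1b was nearest to mmp14a, which encodes a membrane-bound matrix protease, efna1a and ctsk (0.04, 0.05 and 0.06), with mmp14a at 21.5, 26.1, 11.0 and 10.9 FPKM. The nearest gene was tcf7l1b for zeb2a (0.02), gfm1 for cdh2 (0.03), rock2b for snai1a (0.03), rad1 for prrx1b (0.02) and celsr1a for snai1b (0.07).

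The deposited values are per transcript event, such as a first exon, a last exon or a skipped exon, and show which forms of these genes were listed. Snai1b, prrx1a and cdh2 had 1 first and 1 last exon each, with equal FPKM in each library, and snai1a had only a last exon of 1137 bases. Zeb2a had 3 listed first exons. The most downstream of them, at 25966102 to 25966473, took 0.890% of the first-exon FPKM in injured SIS3, 39.6% in injured DMSO, 26.7% in uninjured SIS3 and 0.623% in uninjured DMSO. The share was thus high in 1 injured and 1 uninjured library and near 0 in the others, and followed neither injury nor the compound. A second zeb2a exon with 2 alternative ends was more even, with the longer form (181 bases) at 57.6%, 59.9%, 50.8% and 55.7%.

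For twist1b, 3 first exons of 555, 610 and 740 bases shared 1 start. The longest took 75.1% in injured SIS3, 70.4% in injured DMSO, 85.8% in uninjured SIS3 and 73.7% in uninjured DMSO, and the shortest was not listed in uninjured SIS3. Alternative splicing is known to make more than 1 Prrx1 protein. In prrx1b a cassette exon of 62 bases (chromosome 20, 34616158 to 34616219) was included in 87.4% of the FPKM in injured SIS3, 82.3% in injured DMSO, 83.2% in uninjured SIS3 and 73.2% in uninjured DMSO, at levels of 0.220 to 2.13 FPKM per form. No such exon was listed for prrx1a. The first exon of snai2, which set its level, was above its last exon in injured DMSO (59.4 and 50.1 FPKM) and in uninjured DMSO (14.3 and 12.9 FPKM). In uninjured SIS3 it was also above, at 14.6 and 13.1 FPKM. Only in injured SIS3 were both equal, at 38.2 FPKM. In snai2 an exon 27 bases shorter than the common one, by its start, took 9.33% in injured SIS3 and was not listed in the other libraries. A locus on the opposite strand, listed under the gene ID of snai2 at 0.510 FPKM in uninjured SIS3 only, counts into its level there. Without it the injury change of snai2 in SIS3 was 1.33. The sources used here do not say how the authors divided reads among forms, and without counts these shares have no interval.

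**Figure D5:**
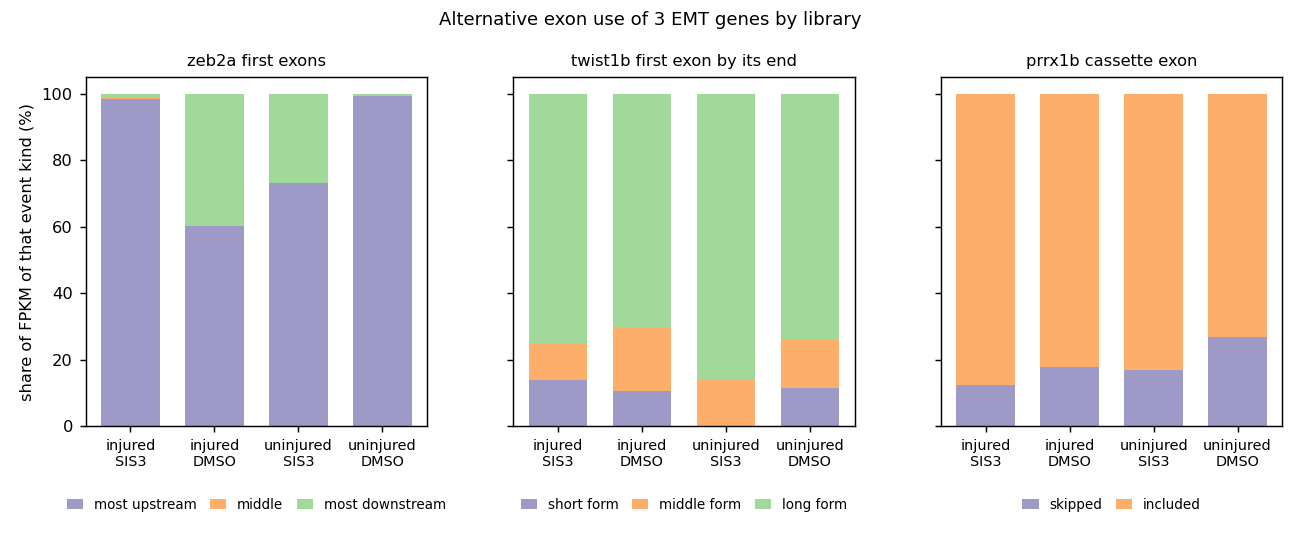
Share of FPKM taken by each first exon of zeb2a, each form of the twist1b first exon, and the included and skipped forms of the prrx1b cassette exon, in percent, for the 4 libraries. The most downstream zeb2a first exon takes 39.6% in injured DMSO and 26.7% in uninjured SIS3, and under 1% in the other libraries.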

How the data were processed

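The authors deposited 1 table per library, with an FPKM value (fragments per kilobase of transcript, scaled to sequencing depth) for each transcript event, such as a first, last or skipped exon. Per the submitters' processing notes CASAVA 1.8, HISAT2 2.0.5, HTSeq 0.6.1 and the GRCz10 build were named, with no roles. The sources used here do not name the program that wrote the event tables. From the deposited FPKM, repeated lines were dropped, and a gene's level was taken as the larger of its summed first-exon and summed last-exon values. Symbols came from the gene name table, and from neighbouring genes in RefSeq (GRCz12tu, names only). Levels were scaled by centred median-of-ratios factors, and differences are on the log2(scaled FPKM + 1) scale among 13586 genes whose mean reached 1 FPKM. A gene past 2-fold was called. No test was run, since a group had 1 library. The scaling and the 2-fold calls were tested on simulated gene levels, without the pseudocount and the filter. The gene levels from exon events and the symbols were not part of that test. The genes and lists were chosen with earlier results of these data known. Genes named from a list were up to 4 per comparison by size of change, reaching 5 FPKM in the higher of the libraries. Alternatives were other pseudocounts, scalings, filters and exon events. Promoter motifs were not analysed here.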

Additional observations from a re-analysis of the deposited data

Results flagged for a closer look

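For 7 of the 8 listed genes the difference of SIS3 from DMSO had opposite signs in injured and in uninjured hearts. The log2 changes were −0.48 in injured and 0.46 in uninjured hearts for snai1b, −0.63 and 0.074 for snai2, −0.27 and 0.057 for twist1b, −0.65 and 0.059 for prrx1a, −0.32 and 0.021 for prrx1b, −0.24 and 0.034 for zeb2a, and −0.063 and 0.13 for cdh2. The injury change of snai1b also had opposite signs, −0.25 in SIS3 and 0.68 in DMSO. Of all compared genes, 49.6% were above 0 for SIS3 in injured hearts and 48.5% in uninjured hearts. How many of them had opposite signs was not counted. Without scaling, all genes had a median of 0.069 for SIS3 in uninjured hearts. The uninjured values of snai2, twist1b, prrx1a, prrx1b and zeb2a are about that size or smaller, so no reversal is read for these genes. For SIS3 in injured hearts the median of all genes without scaling was −0.043. The injured value of cdh2 is near that size, so no reversal is read for cdh2 either. Each value sets 1 library against 1 library and the difference was not tested.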

How the results depend on the processing

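Of 350 values of the EMT genes under the alternatives, 348 kept their side of 2-fold and 2 (both snai1b in the difference) crossed it. The injury change in DMSO ranged from 2.81 to 3.75 for prrx1a, from 1.74 to 2.19 for snai2 and from 1.01 to 1.42 for twist1b. For SIS3 after injury the range was −0.70 to −0.60 for prrx1a and −0.68 to −0.39 for snai2. The number of genes past 1 in the difference of the injury changes was 0, but 1 (snai1b) with a pseudocount of 0.1 FPKM (−1.29) and 1 without scaling (−1.04). The sign held for each gene and comparison under the alternatives run, except for prrx1b and injury in DMSO, at −0.04 and, without scaling, 0.12. Snai1a had no first-exon value, and snai1b and prrx1b have no value when genes must average 5 FPKM. The share of all genes called, 1.13% to 8.87% in the main setting, moved by over 1.5 times in 5 cases with a pseudocount of 0.1 FPKM (2.77% to 10.3%), in 8 with 5 FPKM (0.339% to 3.15%) and in 1 when genes had to average 5 FPKM (1.14%). The locus opposite to snai2 was left out as an alternative chosen after seeing the data. No paired analysis was possible because each group had 1 library. Depth is unknown, so low values such as those of snai1b and prrx1b have no interval.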

Other observations

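Endocardial cushion and valve markers, which an EMT in the heart would also involve, were lower after injury in 3 of 12 compared genes and higher in 1, by at least 2-fold, in DMSO and likewise in SIS3 (median −0.35 in both). Of all compared genes, 8.87% were lower and 6.49% higher by that much in DMSO, and 6.74% and 6.43% in SIS3. The notch receptor gene notch1b was at 12.7 FPKM in injured SIS3, 12.1 in injured DMSO, 28.9 in uninjured SIS3 and 32.6 in uninjured DMSO. The versican gene vcana, a matrix component of the cushions, was at 13.4, 6.31, 4.29 and 1.34 FPKM in the same order. Its paralog vcanb went the other way with injury, at 1.38, 1.28, 6.72 and 4.28 FPKM, as did elnb, at 19.5, 24.0, 200 and 85.5 FPKM. All 6 compared catenin genes, which link cadherins to the cytoskeleton, were below 0 after injury in DMSO (median −0.46), 1 of them at least 2-fold lower, but the changes of ctnna1, jupa and ctnnb2 (−0.04, −0.08 and −0.14) are smaller than the median of 0.17 that all genes had without scaling. With SIS3 after injury 4 of the 6 were above 0 (median 0.09). The 1 past 2-fold with SIS3 after injury, ctnnd1, was at 15.9 FPKM in injured SIS3, 6.59 in injured DMSO, 14.4 in uninjured SIS3 and 12.1 in uninjured DMSO, with a change of 1.15. The β-catenin gene ctnnb1 was at 89.3, 107, 91.9 and 184 FPKM in the same order.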
